A study of Homo sapiens with 12 samples.

Results

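The mitochondrial ribosomal protein genes are the nuclear genes MRPL1 to MRPL58 and MRPS2 to MRPS36, named for the proteins of the ribosome inside mitochondria. They were chosen by name, as protein-coding genes whose symbol starts with MRPL or MRPS followed by a number. This rule found 78 genes among the 58662 gene identifiers that could be matched to an annotation, 51 placed in the large and 27 in the small subunit. The gene MRPS30 and the gene MRPS18A were placed with the large subunit, where their products are found in the assembled ribosome. The others follow their names, MRPS36 included, and whether each product is part of the ribosome was not tested. Of the 78 genes, 76 passed the filter on low values described below and were tested, among 12830 tested genes in all.

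The mitochondrial ribosome translates the few mRNAs of the mitochondrial genome, which encode core subunits of the respiratory chain and of ATP synthase. Its RNA comes from the mitochondrial genome, while all of its proteins are made in the cytosol from nuclear genes and imported. Many of them descend from proteins of the bacterial ribosome, and many others have no bacterial counterpart and were added around that core. Both kinds are needed for assembly, and the promoters of these genes are known for sites of the factors NRF1, ETS-family members such as GABPA, and YY1.

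Gene expression was measured by RNA-seq of total RNA from HEK293T cells, a human embryonic kidney line, in 12 libraries. The cells were wild-type and had been transfected with a control siRNA (siCTL) or with an siRNA against CARM1, an arginine methyltransferase, or against CHD4, HDAC2, GATAD2A or KDM1A, proteins of the NuRD chromatin remodelling complex or associated with it. Each of the 6 groups held 2 libraries, cultured in DMEM with serum under normal conditions, and the question of the design is which genes change when each of these mRNAs is reduced. The methods of the study call the cells HEK293, give 1 siRNA sequence for each NuRD gene and 2 for CARM1, and do not name which of the latter was sequenced. A single line of cells in culture is the only model here, and nothing states that the 2 libraries of a group came from separate cultures, so p-values measure only the spread between these libraries. The labels name 2 sequencing companies without assigning libraries to them, so company and group cannot be told apart.

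Between 19308315 and 28648657 read pairs were counted on genes per library. The targeted mRNA fell in its own knockdown in each case (edgeR, largest adjusted p = 1.2e-07). On the log2 scale the fall was 2.37 for CARM1, 2.35 for HDAC2, 1.74 for GATAD2A, 2.59 for KDM1A and 0.54 for CHD4. Another annotated gene shares 46.9% of the exonic bases of CHD4 on the same strand, and its part in the CHD4 values was not tested. CHD4 also fell in siCARM1, by 0.32, GATAD2A rose in siCHD4, by 1.09, and CARM1 rose in siKDM1A, by 0.26, at a fold so near 1.2 that RLE size factors (0.26), DESeq2 (0.26), unstranded counts (0.26), 3 other choices of samples or filter and 7 of the libraries left out ended the call. Of 8 genes listed as typical of HEK293, VIM and NEFL were abundant, with lowest values of 254 and 129 CPM. CPM here is the count scaled to the library total over the tested genes, adjusted by edgeR's TMM factor. NEFM did not exceed 0.755 CPM in any library. Of 5 leukocyte markers 1 was tested, and PTPRC reached at most 1 count. Of 5 markers each for MCF-7 cells and for fibroblasts 3 were tested, while ESR1, TFF1, DCN and THY1 reached at most 0.596 CPM. The summed HEK293 markers moved with the groups, from 479 to 491 CPM in siGATAD2A up to 1040 to 1079 CPM in siCARM1. In siCTL they held 643 to 646 CPM. VIM alone ranged from 254 to 748 CPM over the libraries. Of the 6 tested HEK293 markers, 3 had a positive and 3 a negative log2 fold change in siGATAD2A, and 5 and 1 in siCARM1. The summed fibroblast markers also moved, from 86.2 to 89.1 CPM in siGATAD2A up to 141 to 157 CPM in siKDM1A. The summed MCF-7 markers lay between 95.9 and 127 CPM and the leukocyte markers between 1.59 and 8.35 CPM, highest in siCHD4. The part of these markers in the results below was not tested. In bulk RNA, fewer cells that express a gene and less RNA of it per cell cannot be told apart.

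Levels are compared between genes as FPKM, the count scaled to the length of the canonical transcript and to the library total. In siCTL the median FPKM of the 76 tested genes was 25.8, against 10.3 for all tested genes, and 60 of the 76 lay above the latter value. Large-subunit genes had a median FPKM of 26.6 and small-subunit genes one of 21.1. Genes with a bacterial counterpart (median FPKM 27.3) and those without one (25.3) differed little against the spread among members, whose quartiles were 11.9 and 56.6.

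At the upper end of this range, MRPL41 stood at an FPKM of 222.7, MRPS34 at 119.8 and MRPS26 at 89.7 in siCTL. At the lower end were MRPL2, a core protein of the large subunit, at 1.10, MRPS28 at 1.80 and MRPL46 at 5.01. These high and low genes were picked by FPKM over all exons, so other genes may rank beyond them over the canonical transcript. MRPL2 was counted 25 and 32 times in the siCTL libraries and MRPS28 19 and 47 times, which leaves standard errors of 0.28 or more for their log2 fold changes. The 3 low genes picked in this way share exonic bases on the same strand with another annotated gene, 29.2% for MRPL2, 35.8% for MRPS28 and 11.3% for MRPL46. Read pairs that overlap 2 genes are not counted in tables of this kind. How far this lowered their values was not tested.

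**Figure D1:**
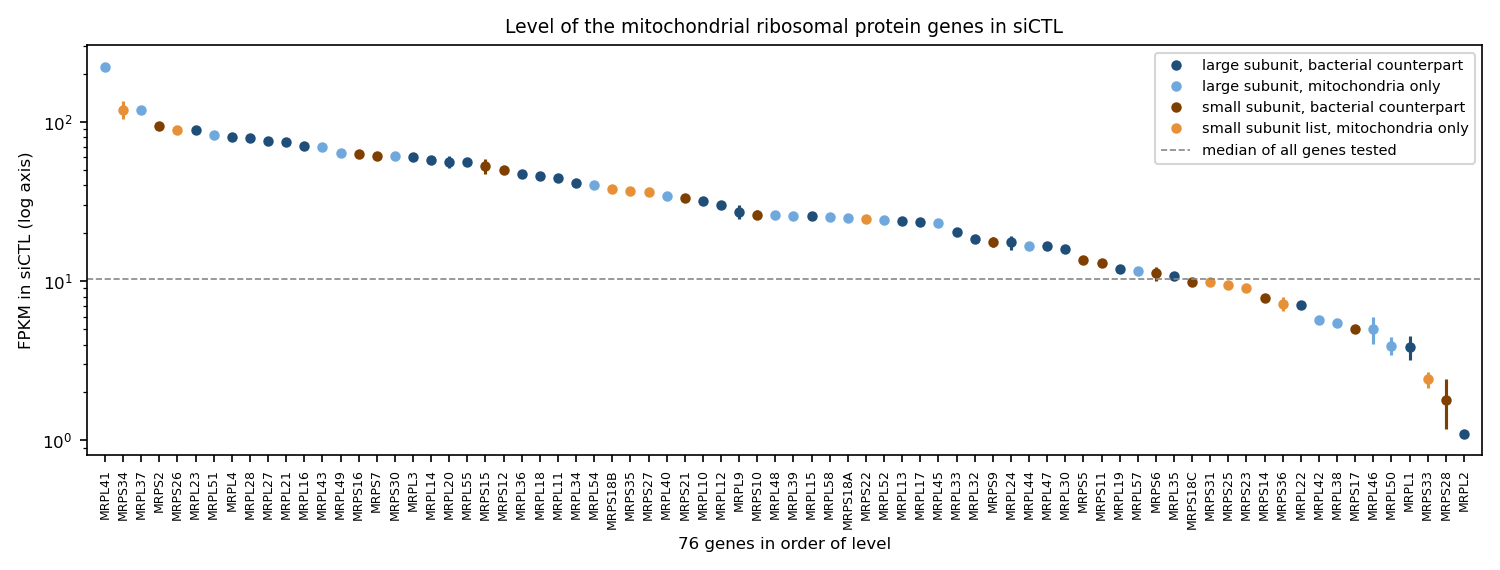
Level of each of the 76 tested mitochondrial ribosomal protein genes in siCTL as FPKM over the canonical transcript, on a log axis, ordered from high to low and coloured by subunit and by presence of a bacterial counterpart. Points are means and vertical lines join the 2 libraries, and the dashed line is the median of all tested genes (10.3). Both subunits and both kinds of protein are spread over the whole range, from MRPL41 at 222.7 to MRPL2 at 1.10.

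The 2 genes that were not tested are MRPL53 and MRPS24. MRPL53 (ENSG00000204822.7, chromosome 2 of GRCh37, 74699109 to 74699814) is listed at 0 in all 12 libraries, and 72.8% of its exonic bases are shared with CCDC142 on the same strand. MRPS24, whose product corresponds to a bacterial small-subunit protein, was counted 12 to 27 times per library and shares 23.2% of its exonic bases with the annotated readthrough gene URGCP-MRPS24. In all, 17 of the 78 genes share more than 5% of their exonic bases with another gene on the same strand, and 36 have at least 1 annotated pseudogene by name, 79 pseudogenes in all, so part of their reads may have been lost or split. The highest number of pseudogenes for 1 gene was 8, for MRPS21.

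The effect of each knockdown on these genes was then examined. A gene was called lower or higher when its p, adjusted by Benjamini-Hochberg over all tested genes, was at most 0.05 and its fold at least 1.2. In siCARM1, 12 of the 76 genes were lower and 3 higher, while 14.5% and 14.9% of all tested genes were lower and higher. In siCHD4, 23 were lower and 5 higher, against 24.9% and 24% of all tested genes. In siHDAC2, 12 were lower and 1 higher, against 9% and 10.6%. In siGATAD2A, 6 were lower and 3 higher, against 18.2% and 15.7%, and in siKDM1A, 8 were lower and 2 higher, against 11.5% and 14.2%. As shares of the 76, the lower calls were 15.8%, 30.3%, 15.8%, 7.89% and 10.5% in this order, near or below the background in siCARM1, siGATAD2A and siKDM1A. The higher calls, 3.95%, 6.58%, 1.32%, 3.95% and 2.63%, were under the background in each knockdown.

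The changes were small. The median log2 fold change of the 76 genes was −0.08 for siCARM1, −0.15 for siCHD4, −0.14 for siHDAC2, −0.04 for siKDM1A and −0.07 for siGATAD2A, while that of all tested genes lay between −0.0024 and 0.0051. Of the 76 genes, 38 stayed within 0.3 on the log2 scale in all 5 knockdowns. A change of more than 2-fold in any knockdown was seen for 1 of the 76 (1.32%), against 12.6% of all tested genes. At least 1 call was made for 41 of the 76 (53.9%) against 73.0% of all tested genes, and 24 genes had a negative and 6 a positive log2 fold change in all 5 comparisons. The 5 comparisons share the siCTL libraries, so such counts over comparisons are not independent. For the counts of 38, 24 and 6 genes no share of all tested genes was computed, and whether this family differs in them was not tested.

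Summed over the 76 genes, siCTL held 4054 and 4030 CPM. The sum was 3807 and 3753 CPM in siCARM1, 3640 and 3643 CPM in siCHD4 and 3707 and 3746 CPM in siHDAC2, 93.5%, 90.1% and 92.2% of the siCTL mean. In siGATAD2A it was 3992 and 3946 CPM and in siKDM1A 3938 and 3865 CPM, 98.2% and 96.5% of siCTL. Every knockdown library lay below both siCTL libraries, and the gap was largest in siCHD4 and smallest in siGATAD2A. A CPM is scaled to the tested genes and by TMM, so the sum describes these genes relative to the other tested genes. It is not a share of the library: the TMM factors were 1.012 and 1.007 in siCTL and 0.968 and 0.971 in siCHD4.

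The canonical transcripts of these genes are short, with a median of 1242 bases against 3375 for all tested genes, and the counts depended on whether transcript length was corrected for. With a correction of each library for exonic length, the lower calls in siHDAC2 went from 12 to 5 and those in siKDM1A from 8 to 4, and the median log2 fold changes moved to −0.02 for siCARM1, −0.11 for siCHD4, −0.09 for siHDAC2, −0.0044 for siKDM1A and −0.02 for siGATAD2A. The medians kept their sign and were nearer to 0 in each knockdown.

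**Figure D2:**
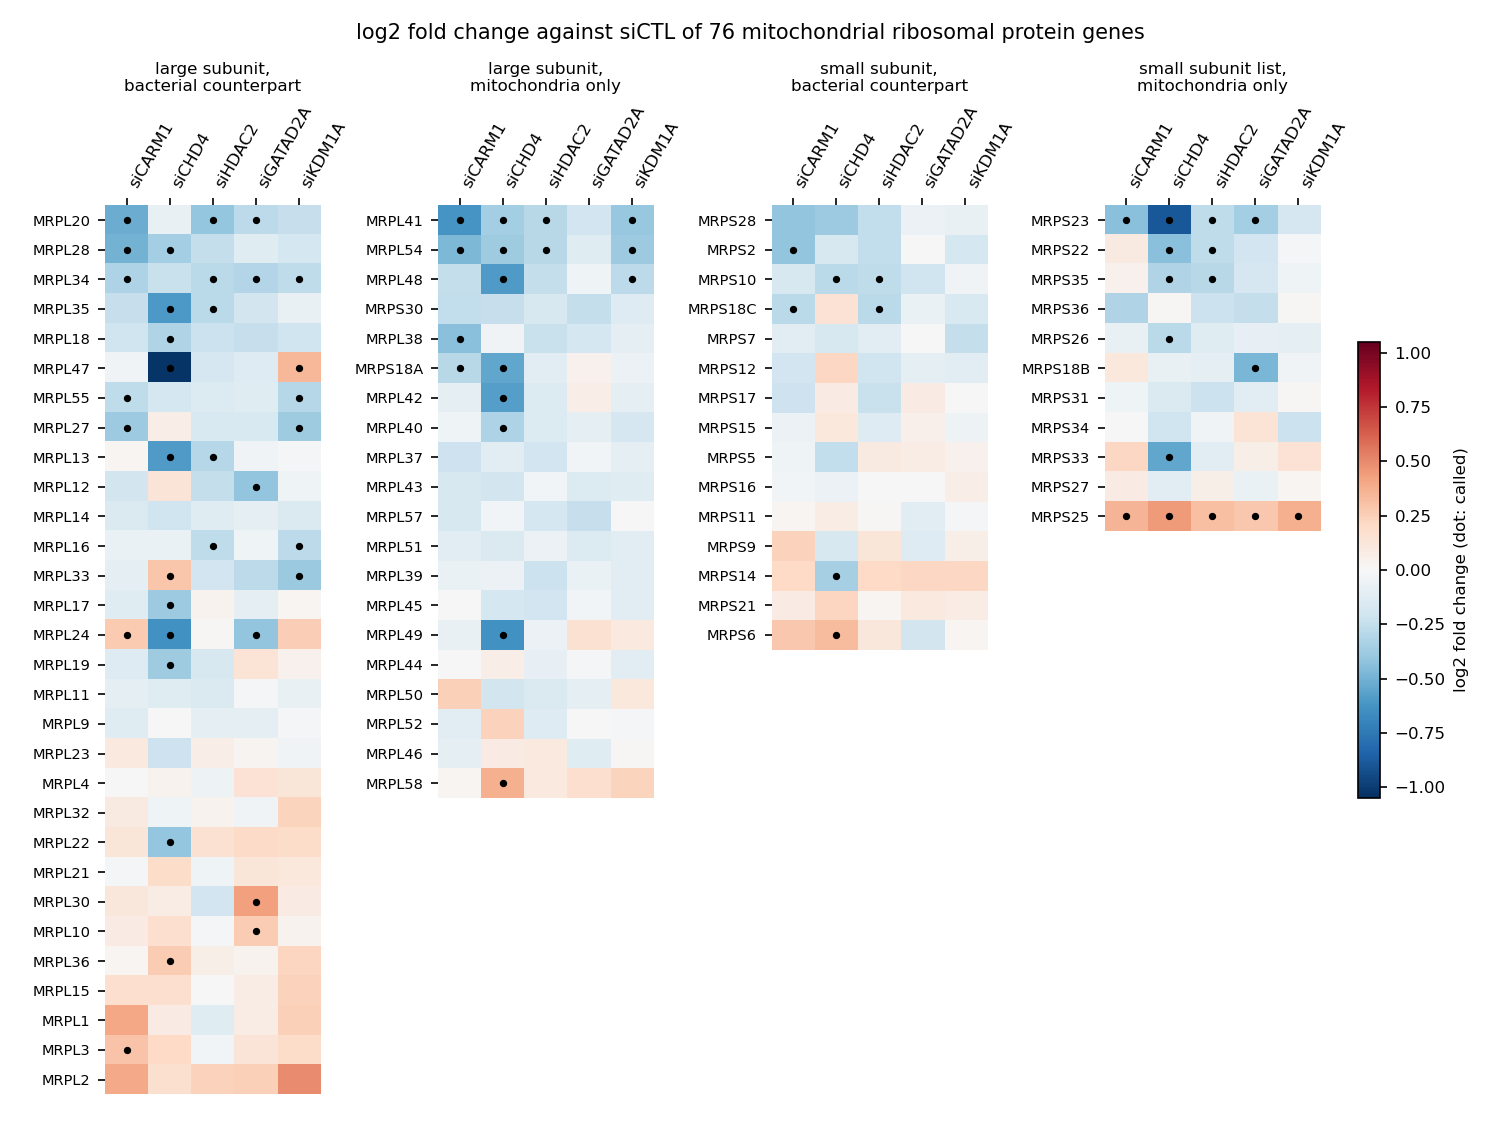
Log2 fold change against siCTL of the 76 tested genes (rows) in the 5 knockdowns (columns), in 4 panels by subunit and by presence of a bacterial counterpart, from blue (lower) to red (higher). Black dots mark called genes. MRPS25 is the only row with a dot in all 5 columns, and the darkest cell is MRPL47 in siCHD4 (−1.03).

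By subunit, 9, 16, 7, 4 and 8 of the 50 tested large-subunit genes were lower in siCARM1, siCHD4, siHDAC2, siGATAD2A and siKDM1A, and 2, 3, 0, 2 and 1 were higher. Of the 26 small-subunit genes 3, 7, 5, 2 and 0 were lower and 1, 2, 1, 1 and 1 higher. The lower shares were 18%, 32%, 14%, 8% and 16% for the large and 11.5%, 26.9%, 19.2%, 7.69% and 0% for the small subunit. Of all tested genes 14.5%, 24.9%, 9%, 18.2% and 11.5% were lower. Higher calls were rarer in both subunits than among all tested genes in each knockdown. In siKDM1A all 8 lower genes thus encode large-subunit proteins, but the difference between the subunits was not tested. Among the 45 genes with a bacterial counterpart 7, 11, 7, 4 and 5 were lower, and among the 31 without one 5, 12, 5, 2 and 3 were lower. These are 15.6%, 24.4%, 15.6%, 8.89% and 11.1% of the 45 and 16.1%, 38.7%, 16.1%, 6.45% and 9.68% of the 31. MRPS18A and MRPS18B are counted among the 31, although they are relatives of a bacterial protein, since the place of that protein is held by MRPS18C. With these 2 genes moved, 8, 12, 7, 5 and 5 of 47 and 4, 11, 5, 1 and 3 of 29 were lower. The median log2 fold change in siCHD4 was −0.07 for the 45 genes and −0.19 for the 31, and the difference was not tested.

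Whether the 5 knockdowns differed from each other was tested with edgeR's F test over the 5 group means. Of the 76 genes, 54 differed at an adjusted p of 0.05 or less, against 88.1% of all tested genes. In siCHD4, 11 genes were called lower that were lower in no other knockdown: MRPL17, MRPL18, MRPL19, MRPL22, MRPL40, MRPL42, MRPL47, MRPL49, MRPS14, MRPS26 and MRPS33. They are 14.5% of the 76 genes, while 10.7% of all tested genes were lower in siCHD4 alone. All of these but MRPL18 were among the 54, and for MRPL18 (adjusted p = 0.611) no difference among the knockdowns was found.

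Among large-subunit genes with a bacterial counterpart, MRPL47 changed most. Its product sits by the exit of the tunnel through which the new protein chain leaves the ribosome. The gene (ENSG00000136522.14, chromosome 3 of GRCh37, 179306073 to 179322437, minus strand) faces NDUFB5, which encodes a subunit of respiratory complex I and starts 156 bases away. The stretch between both genes and ahead of the MRPL47 start, 51 to 12 bases before it (RefSeq, GRCh38.p14, chr3:179604650-179604689, minus strand), is shown because it holds the letters CCGGAAG of the ETS family, in capitals:
MRPL47: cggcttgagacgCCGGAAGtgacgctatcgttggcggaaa

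MRPL47 was measured at 24.3 and 23.1 CPM in siCTL, 23.1 and 23.2 in siCARM1, 11.2 and 12.01 in siCHD4, 21.4 and 20.6 in siHDAC2, 21.4 and 21.6 in siGATAD2A and 29.7 and 30.4 in siKDM1A. The siCHD4 libraries were far below all others and the siKDM1A libraries above all others, with a gap to the rest in both cases. The log2 fold change was −1.03 in siCHD4 (standard error 0.090, edgeR adjusted p = 1.9e-11) and 0.35 in siKDM1A (standard error 0.079, adjusted p = 0.0007), and the 5 knockdowns differed (adjusted p = 2e-13). Both calls were kept in each alternative and with each library left out. The facing gene NDUFB5 had a log2 fold change of −0.04 in siCHD4 (adjusted p = 0.658) and 0.21 in siKDM1A.

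MRPL24 encodes another protein of the tunnel exit (ENSG00000143314.12, chromosome 1, 156707095 to 156711382). It stood at 18.05 and 14.7 CPM in siCTL, 20.3 and 19.04 in siCARM1, 10.6 and 10.4 in siCHD4, 17.8 and 15.2 in siHDAC2, 12.7 and 11.8 in siGATAD2A and 19.7 and 19.3 in siKDM1A. The gene was thus low in siCHD4 and siGATAD2A and high in siCARM1. Both siKDM1A libraries also lay above siCTL, but the log2 fold change of 0.26 there (edgeR adjusted p = 0.0444) was under the fold of 1.2. Its log2 fold change was −0.63 in siCHD4 (edgeR adjusted p = 1.3e-05), −0.41 in siGATAD2A (adjusted p = 0.00232) and 0.27 in siCARM1 (adjusted p = 0.0297). DESeq2 did not call the gene in siCARM1 (adjusted p = 0.0829). The 2 siCTL libraries lay apart, and the call in siCARM1 was lost without siCTL replicate 2 (log2 fold change 0.12, adjusted p = 0.459) or siCARM1 replicate 1 (0.22, adjusted p = 0.152), and that in siGATAD2A without siCTL replicate 1 (−0.26, adjusted p = 0.0967).

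MRPL33 also moved both ways. It was at 11.3 and 10.5 CPM in siCTL, 13.4 and 13.2 in siCHD4 and 8.13 and 8.55 in siKDM1A, and between 8.74 and 10.7 in the other knockdowns. The log2 fold change was 0.29 in siCHD4 (edgeR adjusted p = 0.0265) and −0.39 in siKDM1A (adjusted p = 0.0106). It was counted 207 and 229 times in siCTL. DESeq2 did not call it in siCHD4 (adjusted p = 0.0746). The call in siCHD4 was lost without siCTL replicate 2 (0.23, adjusted p = 0.169), siCHD4 replicate 1 (0.27, adjusted p = 0.103) or siCHD4 replicate 2 (0.29, adjusted p = 0.0843), and that in siKDM1A without siCTL replicate 1 (−0.34, adjusted p = 0.0774) or siKDM1A replicate 1 (−0.35, adjusted p = 0.0634). BABAM2 covers 21.1% of its exonic bases on the same strand.

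MRPL34 was called lower in 4 knockdowns, all but siCHD4. The gene lies on chromosome 19 (ENSG00000130312.7, 17403418 to 17417652). Its upstream stretch, 150 to 42 bases before the start (RefSeq, GRCh38.p14, chr19:17305722-17305830, plus strand), holds a match to the NRF1 letters CGCANGCGC, in capitals:
MRPL34: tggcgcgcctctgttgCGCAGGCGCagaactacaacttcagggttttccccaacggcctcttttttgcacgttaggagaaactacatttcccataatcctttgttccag

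MRPL34 had 35.4 and 31.9 CPM in siCTL, 27.6 and 26.1 in siCARM1, 27.9 and 29.3 in siCHD4, 26.3 and 28.7 in siHDAC2, 27.7 and 26.5 in siGATAD2A and 29.9 and 26.2 in siKDM1A. All 10 knockdown libraries were below both siCTL libraries, within a narrow band. The log2 fold changes were −0.32, −0.23, −0.28, −0.31 and −0.26 in the order given, with edgeR adjusted p between 0.00148 and 0.0124, and the siCHD4 value passed the test but not the fold of 1.2. No difference among the knockdowns was found (adjusted p = 0.814). The calls rest on siCTL replicate 1: without it the log2 fold changes were −0.25 in siCARM1, −0.21 in siHDAC2, −0.23 in siGATAD2A and −0.19 in siKDM1A, each under the fold of 1.2. The calls were also lost in siHDAC2 without siHDAC2 replicate 1 (−0.23) and in siKDM1A without siKDM1A replicate 2 (−0.17), and the correction for exonic length left none of the 4.

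MRPL20 and MRPL28 showed their largest change in siCARM1. The product of MRPL20 corresponds to a bacterial protein that binds ribosomal RNA early in assembly. It stood at 45.3 and 37.95 CPM in siCTL and 30.5 and 27.3 in siCARM1, a log2 fold change of −0.52 (edgeR adjusted p = 6.3e-06), and it was also lower in siHDAC2, at 28.7 and 33.4 CPM (−0.41), and in siGATAD2A, at 34.1 and 34.5 CPM (−0.27). In siCHD4 it was at 37.8 and 40.5 CPM, overlapping siCTL. The siGATAD2A call was lost without siCTL replicate 1 (−0.15, adjusted p = 0.217). MRPL28 went from 130 and 126 CPM to 92.7 and 88.4 in siCARM1 (−0.49, edgeR adjusted p = 2.7e-09) and to 104 and 96.0 in siCHD4 (−0.35).

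MRPL27, whose bacterial counterpart reaches the peptidyl transferase centre, was at 53.8 and 56.1 CPM in siCTL, 42.6 and 41.6 in siCARM1 and 42.6 and 42.3 in siKDM1A. It was lower in both, by 0.38 and 0.37 on the log2 scale (edgeR adjusted p = 8.1e-05 and 0.00015), and its siCHD4 libraries, at 60.4 and 55.03 CPM, overlapped siCTL. MRPL13 was lower in siCHD4 (32.1 and 31.2 CPM in siCTL against 21.8 and 20.02, log2 fold change −0.60, edgeR adjusted p = 9.9e-08) and in siHDAC2 (25.3 and 26.0 CPM, −0.30). MRPL3, a protein near the catalytic centre, was higher in siCARM1 alone among the calls, with 132 and 136 CPM against 111 and 107 in siCTL (0.30, edgeR adjusted p = 1.4e-05), and the 5 knockdowns differed (adjusted p = 1.4e-05).

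In siGATAD2A the genes of the ribosomal stalk were called in opposite directions. MRPL12, the stalk protein that receives translation factors, went from 33.1 and 31.0 CPM to 23.6 and 24.4 (log2 fold change −0.42, edgeR adjusted p = 4.8e-05), and 69.5% of its exonic bases are shared with an annotated readthrough gene. MRPL10, which anchors the stalk, went from 57.3 and 61.4 to 73.6 and 69.2 CPM (0.27, edgeR adjusted p = 0.00059). Its fold lay so near 1.2 that the call was lost without siCTL replicate 1 (0.22) or siGATAD2A replicate 1 (0.22) and, at 0.26 in each case, without siCARM1 replicate 2, either siCHD4 library, either siHDAC2 library or siKDM1A replicate 1. MRPL30 was the highest relative to siCTL, with 73.8 and 76.6 CPM in siCTL and 99.7 and 103 in siGATAD2A (0.43, edgeR adjusted p = 3e-08). All 3 differed among the knockdowns, with adjusted p of 1.7e-06, 0.00064 and 1.2e-10.

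**Figure D3:**
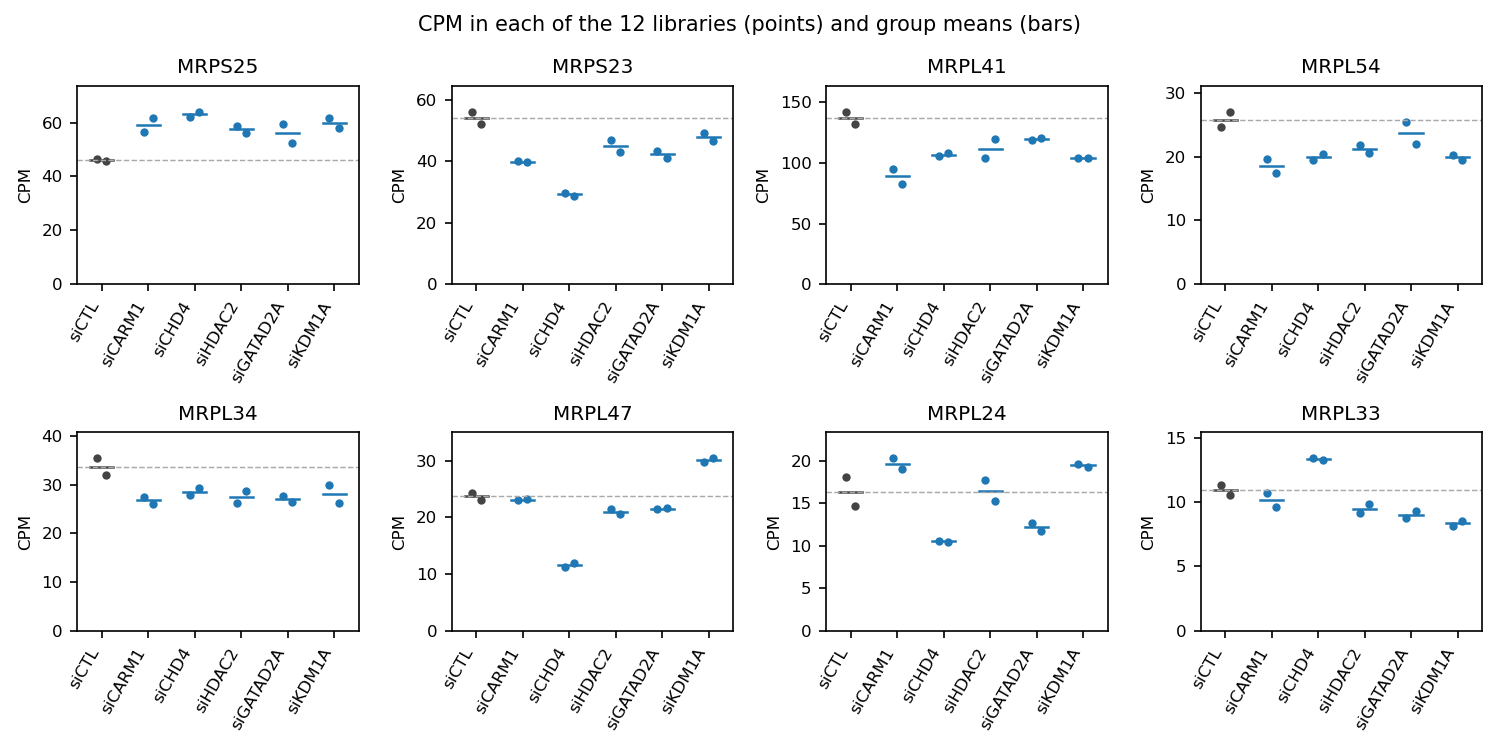
CPM of 8 genes in each of the 12 libraries (points), with the mean of each group (bars) and the siCTL mean (dashed line), on axes that start at 0. The genes are those called in the same direction in at least 4 knockdowns or in both directions. All knockdown points of MRPS25 lie above siCTL and those of MRPS23, MRPL41 and MRPL34 below it, while MRPL47, MRPL24 and MRPL33 move both ways.

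Among the large-subunit genes without a bacterial counterpart, MRPL41 and MRPL54 were lower in siCARM1, siCHD4, siHDAC2 and siKDM1A. MRPL41, which has also been described as a partner of the apoptosis regulator BCL2, lies on chromosome 9 (ENSG00000182154.8, 140446331 to 140447007). MRPL54 lies on chromosome 19 (ENSG00000183617.5, 3762680 to 3768573). Their 150 bases before the start (RefSeq, GRCh38.p14, plus strand, chr9:137551729-137551878 and chr19:3762532-3762681) are shown side by side because the genes share the calls. MRPL54 holds the ETS letters on the opposite strand, in capitals, and MRPL41 holds none of the 4 motifs searched:
MRPL41: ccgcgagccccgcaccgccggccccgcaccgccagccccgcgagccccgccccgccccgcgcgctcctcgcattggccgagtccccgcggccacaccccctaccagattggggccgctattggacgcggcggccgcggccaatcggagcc
MRPL54: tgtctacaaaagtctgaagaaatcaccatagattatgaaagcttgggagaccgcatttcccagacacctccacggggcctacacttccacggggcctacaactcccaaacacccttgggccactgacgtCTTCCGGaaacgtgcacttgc

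MRPL41 was at 142 and 132 CPM in siCTL, 95.2 and 82.4 in siCARM1, 106 and 108 in siCHD4, 104 and 119 in siHDAC2, 119 and 120 in siGATAD2A and 104 and 104 in siKDM1A. All knockdown libraries were below both siCTL libraries, and those of siCARM1 were lowest. The log2 fold change was −0.62 in siCARM1 (standard error 0.061, edgeR adjusted p = 8.5e-10), −0.36 in siCHD4, −0.40 in siKDM1A, −0.29 in siHDAC2 and −0.20 in siGATAD2A, all 5 with an adjusted p of 0.00615 or less and the siGATAD2A value under the fold of 1.2. The call in siHDAC2 was lost without siCTL replicate 1 (−0.24) or siHDAC2 replicate 1 (−0.20), and with a correction for exonic length (−0.17) or GC content (−0.15). The length correction also took siCHD4 (−0.26) under the fold of 1.2, and the GC correction siCHD4 (−0.26) and siKDM1A (−0.23).

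MRPL54 was at 24.6 and 27.0 CPM in siCTL, 19.7 and 17.4 in siCARM1, 19.4 and 20.4 in siCHD4, 21.9 and 20.6 in siHDAC2, 25.3 and 21.9 in siGATAD2A and 20.3 and 19.5 in siKDM1A. Only the siGATAD2A libraries overlapped siCTL. The log2 fold changes were −0.47, −0.37, −0.29, −0.13 and −0.38 in the order given, with edgeR adjusted p of 8.1e-05, 0.00061, 0.013, 0.241 and 0.00112. The siHDAC2 call was lost without siCTL replicate 2 (−0.22, adjusted p = 0.168) or siHDAC2 replicate 2 (−0.24, adjusted p = 0.115).

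MRPL49 and MRPL58 were called in siCHD4 alone, in opposite directions. MRPL49 had 129 and 145 CPM in siCTL, 88.6 and 87.5 in siCHD4 and 127 to 155 in the other knockdowns, a log2 fold change of −0.64 in siCHD4 (standard error 0.052, edgeR adjusted p = 4.5e-12), and differed among the knockdowns (adjusted p = 7.2e-14). MRPL58, a peptidyl-tRNA hydrolase that became part of the ribosome and can release stalled chains, had 24.1 and 23.8 CPM in siCTL and 31.6 and 30.5 in siCHD4 (0.37, edgeR adjusted p = 0.00013). Its log2 fold changes in the other knockdowns were 0.02 to 0.24, and the knockdowns differed (adjusted p = 0.00133). MRPL46, low in every library at 4.21 to 6.26 CPM, was called in none.

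The 3 paralogues MRPS18A, MRPS18B and MRPS18C are relatives of 1 bacterial protein, and their products take different places in the ribosome, MRPS18A in the large subunit and the others in the small one. Each had a pattern of its own. MRPS18A was at 30.4 and 31.2 CPM in siCTL and 20.7 and 21.6 in siCHD4, a log2 fold change of −0.54 (edgeR adjusted p = 9.9e-06). Its siCARM1 libraries lay apart, at 28.7 and 21.3 CPM, and that call (−0.29, adjusted p = 0.0112) was lost without siCARM1 replicate 2 (−0.10, adjusted p = 0.37) or siCTL replicate 2 (−0.27, adjusted p = 0.0744). MRPS18B was at 54.3 and 57.3 CPM in siCTL and 39.97 and 40.2 in siGATAD2A (−0.48, edgeR adjusted p = 2e-07), and at 50.8 to 62.9 CPM in the other knockdowns.

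MRPS18C was lowest of the 3 in siCTL, at an FPKM of 9.90 against 25.01 for MRPS18A and 37.7 for MRPS18B. With 15.4 and 17.1 CPM in siCTL it was called lower in siCARM1 at 14.6 and 12.02 CPM (−0.28, edgeR adjusted p = 0.0296) and in siHDAC2 at 13.8 and 13.0 CPM (−0.29, adjusted p = 0.0355). Both calls were lost without siCTL replicate 2 (adjusted p = 0.24 and 0.267), that in siCARM1 also without siCARM1 replicate 2 (−0.16) and that in siHDAC2 also without either siHDAC2 library (adjusted p = 0.056 without replicate 1 and 0.192 without replicate 2). DESeq2 called neither (adjusted p = 0.0682 and 0.084), and 40.2% of its exonic bases have an annotated exon on the other strand. The 3 paralogues differed among the knockdowns, with adjusted p of 1.2e-05, 1.6e-08 and 0.00107 for MRPS18A, MRPS18B and MRPS18C.

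Among the other small-subunit genes with a bacterial counterpart, MRPS6, whose bacterial relative binds beside that of MRPS18C, was higher in siCHD4. It was at 9.90 and 12.2 CPM in siCTL and 14.3 and 13.7 in siCHD4 (log2 fold change 0.33, edgeR adjusted p = 0.015). The call was lost without siCTL replicate 1 (0.20, adjusted p = 0.219) or siCHD4 replicate 1 (0.29, adjusted p = 0.0896). MRPS28, at 1.01 to 2.16 CPM over the 12 libraries, had standard errors of 0.33 to 0.34 and was called in none.

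MRPS23 and MRPS25, which both encode small-subunit proteins without a bacterial counterpart, were called in at least 4 knockdowns each, in opposite directions. MRPS23 lies on chromosome 17 (ENSG00000181610.13, 55912142 to 55927417, minus strand) and MRPS25 on chromosome 3 (ENSG00000131368.8, 15051118 to 15106846, minus strand). The stretches before their starts, from 150 to 13 bases upstream for MRPS23 (RefSeq, GRCh38.p14, chr17:57850057-57850194) and from 150 to 25 bases upstream for MRPS25 (chr3:15065340-15065465), are given so that both can be compared. Neither stretch holds any of the 4 motifs searched, so no letters are in capitals:
MRPS23: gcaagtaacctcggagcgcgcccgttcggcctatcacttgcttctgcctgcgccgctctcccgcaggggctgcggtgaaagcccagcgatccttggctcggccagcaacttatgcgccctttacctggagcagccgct
MRPS25: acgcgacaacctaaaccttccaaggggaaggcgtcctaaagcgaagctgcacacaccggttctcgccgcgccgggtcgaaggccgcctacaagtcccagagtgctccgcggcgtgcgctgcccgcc

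MRPS23 was at 56.1 and 52.2 CPM in siCTL, 39.96 and 39.7 in siCARM1, 29.7 and 28.8 in siCHD4, 46.9 and 43.1 in siHDAC2, 43.4 and 41.2 in siGATAD2A and 49.1 and 46.5 in siKDM1A. All knockdown libraries were below both siCTL libraries, those of siCHD4 furthest. The log2 fold change was −0.89 in siCHD4 (standard error 0.068, edgeR adjusted p = 1.1e-12), −0.44 in siCARM1 (adjusted p = 2.1e-06), −0.35 in siGATAD2A (adjusted p = 3.7e-05), −0.27 in siHDAC2 (adjusted p = 0.00172) and −0.18 in siKDM1A (adjusted p = 0.026, under the fold of 1.2). The size differed among the knockdowns (adjusted p = 1.1e-09). The siHDAC2 call was lost without siCTL replicate 1 (−0.22) or siHDAC2 replicate 2 (−0.21).

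MRPS25 was at 46.4 and 45.9 CPM in siCTL, 56.5 and 61.6 in siCARM1, 62.1 and 64.0 in siCHD4, 58.8 and 56.2 in siHDAC2, 59.6 and 52.4 in siGATAD2A and 61.6 and 58.0 in siKDM1A. All 10 knockdown libraries were above both siCTL libraries. It was the only one of the 76 genes called in all 5 comparisons, where 2.28% of all tested genes were called higher in all 5, with log2 fold changes of 0.35, 0.45, 0.32, 0.28 and 0.37 in the order given and edgeR adjusted p of 0.00069 or less. No difference among the knockdowns was found (adjusted p = 0.118), and all 5 comparisons use the same 2 siCTL libraries. Annotated exons on the other strand cover 39.1% of its exonic bases, and counts taken without regard to strand gave 0.24 in siCARM1, 0.24 in siHDAC2 and 0.25 in siGATAD2A, under the fold of 1.2. The correction for exonic length left these 3 under it as well (0.26, 0.23 and 0.24), and so did leaving out siGATAD2A replicate 1 in siGATAD2A (0.18, adjusted p = 0.0623).

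Of the other genes of this class, MRPS35 was lower in siCHD4 (70.8 and 71.7 CPM in siCTL against 58.3 and 56.1, log2 fold change −0.32, edgeR adjusted p = 1.2e-05) and in siHDAC2 (58.4 and 58.2 CPM, −0.29, adjusted p = 0.00016). MRPS26 was lower in siCHD4, at 79.7 and 79.1 CPM against 99.5 and 93.4 in siCTL (−0.28, edgeR adjusted p = 0.00017), and fell under the fold of 1.2 without siCTL replicate 1 (−0.23). MRPS34 had siCTL libraries of 143 and 110 CPM, siCARM1 libraries of 146 and 104 CPM and no call. MRPL34, MRPL41, MRPL54 and MRPS23 were thus the 4 genes lower in at least 4 knockdowns, 4 of 76 where 4.38% of all tested genes were.

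The promoters of the 78 genes were searched for 4 motifs known from this gene family, on both strands from 250 bases before to 50 after each RefSeq start. Of the 78 genes 69 matched, with 85 windows, and the comparison is with 15193 windows of 10395 tested genes. The YY1 letters AAGATGGC were in 27.1% of the windows of these genes against 4.65% of all windows. The ETS letters CCGGAAG were in 38.8% against 16.4%. Counted by gene, since some genes have several overlapping windows, these were 30.4% against 6.38% for YY1 and 43.5% against 22.0% for ETS. The NRF1 letters CGCANGCGC, with 15.3% against 12.3%, and the E-box CACGTG, with 10.6% against 9.30%, were nearly as common in all windows. A match says only that the letters are present, and the ETS and YY1 letters can overlap by AAG.

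With a site in overlapping windows counted once, the YY1 letters were found 22 times, and 16 of the matches began after the annotated start. Read in the direction of the gene, the letters hold the ATG of a possible start codon, but the strand of these matches was not counted. The ETS letters were found 40 times, 29 of them within 60 bases of the start. Windows of 24 bases are printed for 6 genes that carry the YY1 letters and are described here, with the letters in capitals in the direction of the gene (RefSeq, GRCh38.p14). MRPL20 is from chr1:1407263-1407286 on the minus strand, MRPL47 from chr3:179604715-179604738 on the minus strand, MRPS18B from chr6:30617855-30617878 on the plus strand, MRPS18A from chr6:43687767-43687790 on the minus strand, MRPL49 from chr11:65122336-65122359 on the plus strand and MRPL46 from chr15:88467365-88467388 on the minus strand. All but that of MRPL47, which reads on the opposite strand 92 bases before the start, lie just after the start:
MRPL20: acccgggcAAGATGGCagcggcgc
MRPL47: aggatgtgGCCATCTTaagtgagg
MRPS18B: cgtacgtcAAGATGGCggcgtctg
MRPS18A: ggtttttgAAGATGGCggccctca
MRPL49: agcaggtaAAGATGGCagctacca
MRPL46: gagaacgaAAGATGGCggcgcccg

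These 6 genes did not share a pattern over the knockdowns. MRPL47, MRPL49 and MRPS18A were lower in siCHD4, MRPL20 was lower in siCARM1, siHDAC2 and siGATAD2A, MRPS18B in siGATAD2A, and MRPL46 was called in none. Of the 4 genes lower in at least 4 knockdowns, MRPL54 and MRPL34 carried an ETS or NRF1 match in the stretches printed above and MRPL41 and MRPS23 none. In the whole searched window MRPS23 held 1 ETS match, and MRPL41 none of the 4 motifs.

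Many of these genes share a promoter region with a second gene that runs the other way. Within 1000 bases of the start, 30 of the 78 genes (38.5%) face another gene, against 25.1% of tested genes, and 26 (33.3%) face a protein-coding one, against 12.8%. MRPL46 and MRPS11, both of this family, face each other at 320 bases on chromosome 15. Both genes were tested in 24 pairs, with MRPL46 and MRPS11 taken as 1 pair. Across the pairs, the Pearson correlation of the 2 log2 fold changes was −0.15 for siCARM1, −0.29 for siCHD4, −0.11 for siHDAC2, −0.0045 for siKDM1A and −0.22 for siGATAD2A, a description over 24 pairs that share their libraries.

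Of 19 calls on the ribosomal gene of a pair, the neighbour was called the same way in 1, the opposite way in 3 and not at all in 15. Neighbours were thus called in 21.1% of these cases, where 29.4%, 48.8%, 19.6%, 33.9% and 25.7% of all tested genes were called in either direction in siCARM1, siCHD4, siHDAC2, siGATAD2A and siKDM1A. The pair called the same way was MRPL13 and MTBP in siCHD4 (−0.60 and −0.27). MRPL27 was lower while EME1, a DNA repair nuclease subunit that starts 45 bases away, was higher in siCARM1 (−0.38 and 0.36) and siKDM1A (−0.37 and 0.45). MRPL10 was higher and LRRC46 lower in siGATAD2A (0.27 and −1.29). MRPL49 fell in siCHD4 (−0.64) while FAU, the neighbour that encodes a ribosomal protein of the cytosol, stood at 0.04 (edgeR adjusted p = 0.442).

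**Figure D4:**
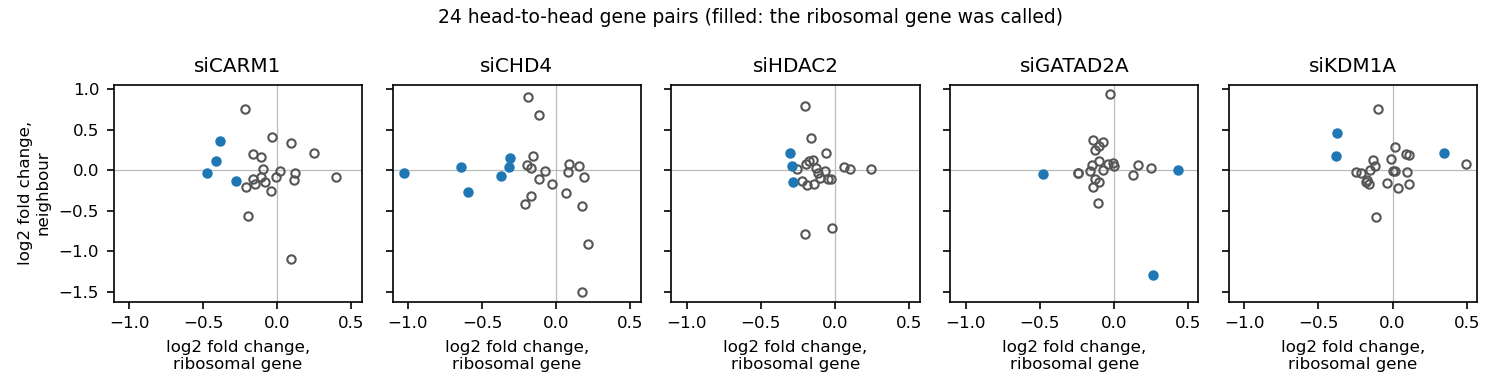
Log2 fold change of 24 tested mitochondrial ribosomal protein genes (horizontal axis) against that of the gene facing each of them within 1000 bases (vertical axis), in 5 panels by knockdown. Filled points are pairs whose ribosomal gene was called. The points do not follow a diagonal, and r lies between −0.29 and −0.0045.

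Other genes of mitochondrial translation were examined as lists. The 5 other proteins of the mitochondrial ribosome, DAP3, PTCD3, CHCHD1, AURKAIP1 and GADD45GIP1, gave 1 call in 25 comparisons, AURKAIP1 lower in siCARM1 (log2 fold change −0.31, edgeR adjusted p = 1.2e-05). Of 17 translation factors and mRNA-binding proteins, 0, 2, 1, 0 and 1 were lower and 5, 5, 0, 2 and 4 higher in siCARM1, siCHD4, siHDAC2, siGATAD2A and siKDM1A. As shares of the 17, lower calls were 0%, 11.8%, 5.88%, 0% and 5.88%, against 14.5%, 24.9%, 9%, 18.2% and 11.5% of all tested genes. Higher calls were 29.4%, 29.4%, 0%, 11.8% and 23.5%, against 14.9%, 24%, 10.6%, 15.7% and 14.2%. LRPPRC, which stabilizes mitochondrial mRNAs, was higher in all but siHDAC2, by 0.36, 0.62, 0.48 and 0.28. The siKDM1A call of LRPPRC was lost without siCTL replicate 2 (0.26) or siKDM1A replicate 2 (0.25).

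Of 23 tested assembly factors of this ribosome, 0, 5, 2, 3 and 0 were lower and 2, 4, 0, 3 and 2 higher in the same order. These are 0%, 21.7%, 8.70%, 13.0% and 0% lower and 8.70%, 17.4%, 0%, 13.0% and 8.70% higher. Each is under the share of all tested genes. MRM1, a methyltransferase of the large ribosomal RNA, was higher in siCARM1 (0.71), siCHD4 (0.66), siGATAD2A (0.67) and siKDM1A (0.56), and RCC1L, a guanine nucleotide exchange factor of assembly, in the same 4 (0.40, 0.54, 0.43 and 0.28). Without siCTL replicate 2 the siKDM1A call of RCC1L was lost (0.22). Of 19 tested mitochondrial aminoacyl-tRNA synthetases and amidotransferase genes, 1, 2, 2, 2 and 1 were lower and 1, 2, 0, 2 and 3 higher. Only the lower share in siHDAC2 (10.5%) and the higher share in siKDM1A (15.8%) exceeded those of all tested genes (9% and 14.2%).

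SARS2, the mitochondrial seryl-tRNA synthetase, was the member of that list lower in 4 knockdowns, by 0.57, 0.91, 0.79 and 0.58 in siCARM1, siCHD4, siHDAC2 and siKDM1A. It faces MRPS12, which stood at −0.20, 0.21, −0.21 and −0.11 and was called in none. The standard errors of SARS2 were 0.22 to 0.23, and 48.2% of its exonic bases are shared with another annotated gene on the same strand. DESeq2 did not call SARS2 in siCARM1 (adjusted p = 0.0917) or siKDM1A (adjusted p = 0.103). With the GC correction SARS2 was not called in siCARM1 (−0.46). Its calls in siCARM1 and siKDM1A were lost without either siCTL library (adjusted p of 0.0823 and 0.118, and of 0.0872 and 0.124), without siCARM1 replicate 2 (−0.42, adjusted p = 0.19) and without siKDM1A replicate 2 (−0.33, adjusted p = 0.348), and that in siCHD4 without siCHD4 replicate 2 (−0.59, adjusted p = 0.0518).

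The 80 proteins of the cytosolic ribosome, for comparison, had median log2 fold changes of −0.06, 0.03, −0.01, −0.03 and −0.04 in the 5 knockdowns, with 5, 5, 2, 10 and 5 genes lower and 2, 11, 2, 3 and 4 higher. In each knockdown both shares were below those of all tested genes. In siCHD4 the cytosolic list thus held 6.25% lower and 13.8% higher genes and the mitochondrial one 30.3% and 6.58%. Of all tested genes 24.9% were lower and 24% higher in this knockdown. In siHDAC2 the shares were 2.50% and 2.50% for the cytosolic and 15.8% and 1.32% for the mitochondrial list. Of all tested genes 9% were lower and 10.6% higher there. The difference between the lists was not tested.

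**Figure D5:**
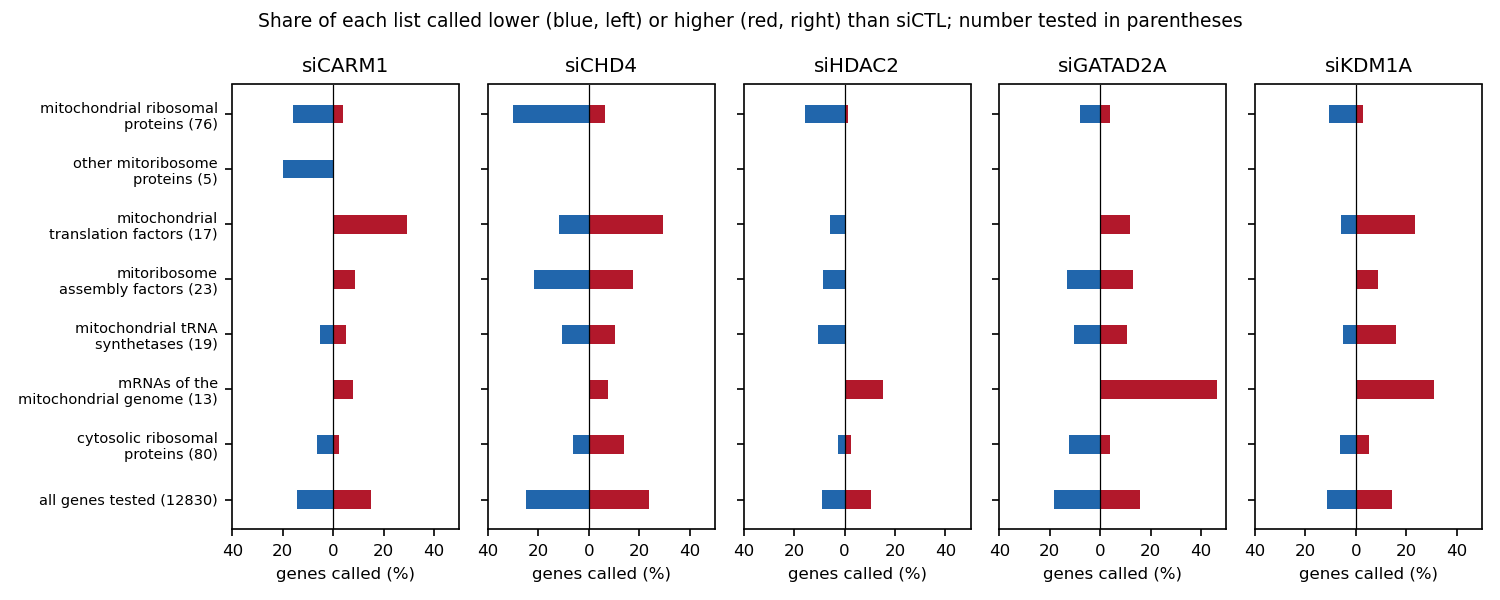
Share of each list called lower (blue, to the left) and higher (red, to the right) than siCTL in the 5 knockdowns, with the number of tested genes in parentheses. Mitochondrial ribosomal proteins are mostly on the lower side, with the longest bar in siCHD4 (30.3%), whereas translation factors are mostly on the higher side in siCARM1, siCHD4 and siKDM1A. All tested genes are nearly balanced in each panel, with 24.9% lower and 24% higher in siCHD4.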

How the data were processed

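RNA-seq of 12 HEK293T libraries was analysed, 2 for each of 6 siRNAs, grouped by the labels. The values deposited by the authors are raw counts for each Ensembl gene, not normalized, and the column of the reverse strand was used because the kit is directional. The submitters' processing notes name CASAVA 1.4, STAR 2.7.10 and hg19, and the methods of the study name TopHat, HOMER and RefSeq. The annotation of the counts is not given in the sources used here. Identifiers were matched without their version to GENCODE mapped to GRCh37, and 1954 unmatched identifiers (1.75% to 2.61% of the counts) and 44 chromosome Y copies were left out.

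Protein-coding genes were tested if any group mean exceeded an FPKM of 0.5, with edgeR 4.0.16 in R 4.3.3 (TMM, quasi-likelihood, 6 group means), with DESeq2 1.42.0 as an alternative. FPKM over all exons served the filter, and FPKM over the canonical transcript, chosen after the data were seen, the levels. The standard error of each log2 fold change comes from the same model, and no FPKM was tested. Counts of replicates differed beyond sampling noise in each group (chi-square per degree of freedom 1.77 to 4.96). In simulated data with 200 of 12830 genes changed, 177 to 179 were recovered per comparison and 3 to 9 unchanged genes called. In the real data a far larger share was called in either direction, from 19.6% of all tested genes in siHDAC2 to 48.8% in siCHD4. The simulation therefore gives no rates for data with so many changes. No rates are given for changes near the fold minimum either.

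The genes and lists were chosen with earlier results of these data known. Genes are named with values if called the same way in at least 4 comparisons, among the up to 4 largest lower or higher calls of a comparison with all libraries beyond siCTL, called both ways, among the 3 highest or lowest by FPKM over all exons, a MRPS18 paralogue, a targeted gene, or of another list and called in at least 4. Facing genes and others were named after their values were seen. Alternatives were RLE size factors, DESeq2, unstranded counts, a replicate block, a fit of 2 groups at a time, 3 other filters, no fold minimum, corrections for GC content and exonic length (loess, span 0.3), and each library left out.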

Additional observations from a re-analysis of the deposited data

How the results depend on the processing

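The lower and higher counts out of 76 genes, the medians and the test among the knockdowns were recomputed under each alternative. No value changed sign. Without the fold minimum, the lower counts were 22 for siCARM1, 37 for siCHD4, 25 for siHDAC2, 15 for siKDM1A and 17 for siGATAD2A, and the higher counts 5 in siCARM1, 12 in siCHD4, 9 in siGATAD2A and 8 in siKDM1A. With the correction for exonic length, the lower counts were 5 in siHDAC2 and 4 in siKDM1A, the higher counts 6 in siCARM1 and 6 in siKDM1A, and the medians −0.0243 for siCARM1, −0.1071 for siCHD4, −0.0885 for siHDAC2, −0.0044 for siKDM1A and −0.0168 for siGATAD2A. With the correction for GC content, siKDM1A had 5 lower and 4 higher genes, and the medians were −0.0967 in siCARM1 and −0.1326 in siCHD4. With FPKM larger than 1, siCARM1 had 5 higher genes and a median of −0.0657. With filterByExpr, siGATAD2A had 10 lower and 1 higher genes, and the medians were −0.1665 in siHDAC2 and −0.0973 in siGATAD2A. Without a filter the median in siCHD4 was −0.1744. Unstranded counts gave 0 higher genes in siHDAC2, 1 in siGATAD2A, and medians of −0.0864 in siCARM1 and −0.1717 in siCHD4. The cause of these moves was not tested. Replicate numbers were not taken as pairs in the main fit. The correlation of the replicate differences of 2 groups ranged from −0.276 to 0.268, which does not settle whether some samples were paired. With a replicate block the higher count in siCARM1 was 4 and each other count was as without the block, 54 genes differing among the knockdowns included. With 1 library left out, the lower counts ranged from 10 to 15 in siCARM1, 23 to 26 in siCHD4, 8 to 13 in siHDAC2, 6 to 10 in siGATAD2A (10 without siGATAD2A replicate 1) and 7 to 10 in siKDM1A. The higher counts ranged from 3 to 6 in siCARM1 (6 without siCTL replicate 1), 3 to 6 in siCHD4 (3 without siCHD4 replicate 1), 1 to 1 in siHDAC2, 1 to 5 in siGATAD2A (1 without siGATAD2A replicate 1, 5 without siCTL replicate 2) and 2 to 5 in siKDM1A (5 without siCTL replicate 2, 4 without siKDM1A replicate 1). The medians ranged from −0.078 to −0.0489 in siCARM1 (−0.0489 without siCTL replicate 1), −0.1633 to −0.1344 in siCHD4, −0.1506 to −0.1362 in siHDAC2, −0.0723 to −0.0406 in siGATAD2A (−0.0406 without siCTL replicate 2) and −0.0661 to −0.0092 in siKDM1A (−0.0661 without siKDM1A replicate 1, −0.0092 without siKDM1A replicate 2), and the genes differing among the knockdowns from 50 to 57. Of 80 calls on named genes, 25 were lost with at least 1 library left out, 28 under at least 1 other alternative, and 48 were kept under all. The length correction ended those on MRPL54, MRPL34 and MRPS35 in siHDAC2 (−0.20, −0.21 and −0.22), MRPL20 in siGATAD2A (−0.24), MRPS26 in siCHD4 (−0.21), MRPS18A in siCARM1 (−0.21) and LRPPRC in siCARM1 (0.20), and the GC correction that on MRPL3 in siCARM1 (0.23), among others. Genes with few counts, such as MRPL2 and MRPS28, leave the smaller changes seen in other genes undetectable at this depth.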

Other observations

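The 13 protein-coding genes of the mitochondrial genome, whose mRNAs this ribosome translates, were themselves counted. None was called lower in any knockdown, and 1, 1, 2, 6 and 4 were called higher in siCARM1, siCHD4, siHDAC2, siGATAD2A and siKDM1A, where 14.9%, 24%, 10.6%, 15.7% and 14.2% of all tested genes were higher. The shares of the 13 were 7.69%, 7.69%, 15.4%, 46.2% and 30.8%. MT-ATP8, a subunit of ATP synthase, was counted 3 to 17 times per library. It had the lowest values, −1.08 in siKDM1A and −0.67 in siCARM1, with standard errors of 0.73 and 0.68 and no call. The gene has 207 exonic bases, of which 22.2% are shared with MT-ATP6 on the same strand. MT-CYB, the mitochondrial subunit of respiratory complex III, was higher in siHDAC2, siGATAD2A and siKDM1A, by 0.33, 0.35 and 0.28 on the log2 scale, and MT-ND2 of complex I in siCHD4 and siGATAD2A, by 0.45 and 0.36 (edgeR, largest adjusted p of the 5 calls 8.7e-05). These mRNAs were 0.517% to 0.704% of the counts of a library. Their median log2 fold change was 0.21 in siGATAD2A, where that of the mitochondrial ribosomal protein genes was −0.07.

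A list of 14 genes held regulators of nuclear genes for mitochondria and factors for transcription of the mitochondrial genome. Among them, MYC was higher in siCARM1 (0.83), siCHD4 (0.99), siHDAC2 (0.43) and siKDM1A (0.56) and stood at 0.04 in siGATAD2A (edgeR adjusted p = 0.705). GABPA, an ETS-family factor, was lower in siCHD4 (−0.41), where the coactivator genes PPRC1 (0.63) and PPARGC1B (0.59) were higher and PPARGC1A lower (−0.68). NRF1 and YY1 were called in none, with log2 fold changes of −0.02 to 0.18 and −0.22 to 0.16. CYB5RL, which starts 137 bases from MRPL37 and runs the other way, was higher in all 5 knockdowns by 0.68 to 0.93, while MRPL37 stood between −0.21 and −0.02 and was called in none.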
